A study of Mus musculus with 4 samples.

Results

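The genes described here are 41 cell cycle and DNA replication genes of the mouse, followed in RNA of ILC3s (group 3 innate lymphoid cells) from the small intestine. They were chosen by name and kept in 3 groups: 16 genes of G1 and its control, 11 genes of DNA replication and 14 genes of mitosis. Of the 41, 36 were listed in the table of the KO and WT libraries, which held 15242 genes, and 40 in the table of the CD93 libraries, which held 12546 genes. E2f2, Tk1, Ccna2, Aurkb and Plk1 were not listed under these names in the first table, nor was Bub1 in the second, and they were not analysed there. ILC3s are lymphocytes without rearranged antigen receptors that defend the gut barrier, largely through IL-22.

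There were 4 libraries, 1 per group. The KO library came from Il17d-KO mice at steady state, lacking the cytokine IL-17D, and the WT library from wild type mice. CD93-positive and CD93-negative ILC3s were both sorted from WT mice at steady state, by the presence of the surface receptor CD93. ILC3s were gated as live cells low for CD45, without the T cell marker CD3 and high for CD90.2. The labels give a culture of 12 h without stimulation ahead of the CD93 sort in the protocol of every library; no source used here says whether that culture applied to KO and WT cells too. The ages and numbers of the mice, and any pooling of animals, are not stated either. Il17d was not listed under this name in either table, so the deleted gene gives no check of the KO label. Cd93 stood at 155.0 FPKM in the CD93-positive library and 79.9 FPKM in the CD93-negative library.

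With 1 library per group there was no replicate error and no test, so every comparison below is between libraries and not between conditions. The deposited unit is FPKM, fragments per kilobase of gene scaled to library size. Because it is per length, it allows levels of different genes within a library to be compared. Differences are log2((FPKM + 1) / (FPKM + 1)), the first-named library over the second, which understates the change of low genes. A gene was measured if it had at least 1 FPKM in either library of a pair, and a difference was counted from 2-fold. Ratios of FPKM are given with 95% exact counting intervals from whole reads recovered from the FPKM. PCR copies of a molecule were not told apart by identifiers, so reads are not independent and the intervals cover counting error only. Recovered reads summed to 20946647 in KO, 21660008 in WT, 11411006 in CD93-positive and 10750240 in CD93-negative cells. The RNA is from bulk cells, so fewer cycling cells and less RNA per cycling cell cannot be told apart.

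A cell commits to division in G1, when D cyclins with the kinases Cdk4 and Cdk6, and then E cyclins with Cdk2, phosphorylate the retinoblastoma protein Rb1 and free E2F transcription factors. E2F targets include the MCM helicase subunits and the enzymes that make deoxynucleotides, which are needed in S phase, while cyclin B with Cdk1 and the spindle genes act in G2 and mitosis. Proteins of the Cip/Kip and INK4 families (here Cdkn1a, Cdkn1b, Cdkn2c and Cdkn2d) hold the kinases back in resting cells. Most tissue-resident innate lymphoid cells are known to divide slowly in adult tissue.

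Promoters of genes of this kind often carry a CCAAT box, and those of late cell cycle genes a cell cycle homology region (CHR), through which repressor and activator complexes act in mouse and human cells. RefSeq promoter windows on GRCm38.p6, from 250 bases before to 50 bases after the start of a gene, were found for 33 of the 41 genes. Each window was searched on both strands for CCAAT, for the CHR letters TTTGAA and for the E2F-like letters TTGGCGC or, as variants of them, TTCGCGC or else TTCCCGC. The letters TTGG of a CCAAT box read on the opposite strand can also open a TTGGCGC, so matches of different motifs may overlap. The windows below are those of the mitosis genes Mki67, Plk1, Cdk1, Bub1b and Cenpa and of the helicase subunits Mcm7 and Mcm6, shown because these are the mitosis genes and helicase subunits with a window whose ratio between the CD93 libraries had a counting interval below 1. The window of Tk1, a replication gene with such an interval, held no match. They lie at chr7:135716330-135716629 on the minus strand (Mki67), chr7:122159185-122159484 on the plus strand (Plk1), chr10:69352863-69353162 on the minus strand (Cdk1), chr2:118597961-118598260 on the plus strand (Bub1b), chr5:30666636-30666935 on the plus strand (Cenpa), chr5:138171834-138172133 on the minus strand (Mcm7) and chr1:128359656-128359955 on the minus strand (Mcm6). Each is written 5′ to 3′ on the strand of its gene, and capitals mark the matches on either strand.
Mki67: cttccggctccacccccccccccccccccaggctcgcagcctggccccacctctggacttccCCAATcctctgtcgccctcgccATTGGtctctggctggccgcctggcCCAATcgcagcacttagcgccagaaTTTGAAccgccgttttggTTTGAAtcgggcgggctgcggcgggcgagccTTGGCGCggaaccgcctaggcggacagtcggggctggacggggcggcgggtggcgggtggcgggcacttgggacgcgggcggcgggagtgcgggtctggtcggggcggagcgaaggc
Plk1: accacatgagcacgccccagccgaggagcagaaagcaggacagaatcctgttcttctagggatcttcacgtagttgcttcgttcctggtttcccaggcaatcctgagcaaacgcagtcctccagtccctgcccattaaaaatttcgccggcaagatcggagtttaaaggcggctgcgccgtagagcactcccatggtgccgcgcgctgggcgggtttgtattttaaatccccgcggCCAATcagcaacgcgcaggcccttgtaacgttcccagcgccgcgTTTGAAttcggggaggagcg
Cdk1: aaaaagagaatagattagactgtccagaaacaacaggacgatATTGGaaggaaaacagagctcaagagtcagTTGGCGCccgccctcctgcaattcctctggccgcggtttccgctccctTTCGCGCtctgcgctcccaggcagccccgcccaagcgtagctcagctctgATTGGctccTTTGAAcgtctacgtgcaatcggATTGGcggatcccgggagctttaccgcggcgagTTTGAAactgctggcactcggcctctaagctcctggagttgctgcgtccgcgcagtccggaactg
Bub1b: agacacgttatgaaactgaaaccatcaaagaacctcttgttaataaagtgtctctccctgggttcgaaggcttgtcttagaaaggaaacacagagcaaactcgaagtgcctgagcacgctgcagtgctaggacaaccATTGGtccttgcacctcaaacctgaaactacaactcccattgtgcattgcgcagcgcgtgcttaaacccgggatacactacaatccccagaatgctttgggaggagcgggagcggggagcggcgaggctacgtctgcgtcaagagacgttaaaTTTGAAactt
Cenpa: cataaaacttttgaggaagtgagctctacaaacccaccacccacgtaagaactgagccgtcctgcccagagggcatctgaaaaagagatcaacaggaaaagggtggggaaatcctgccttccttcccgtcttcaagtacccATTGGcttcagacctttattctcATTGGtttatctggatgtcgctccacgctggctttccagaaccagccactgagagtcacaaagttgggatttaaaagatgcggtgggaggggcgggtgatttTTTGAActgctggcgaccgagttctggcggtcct
Mcm7: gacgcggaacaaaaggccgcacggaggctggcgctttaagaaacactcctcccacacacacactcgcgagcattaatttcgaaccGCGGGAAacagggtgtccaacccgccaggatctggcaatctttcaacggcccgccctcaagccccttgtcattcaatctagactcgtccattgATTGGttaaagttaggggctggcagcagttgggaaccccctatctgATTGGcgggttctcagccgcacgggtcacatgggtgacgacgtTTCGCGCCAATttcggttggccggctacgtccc
Mcm6: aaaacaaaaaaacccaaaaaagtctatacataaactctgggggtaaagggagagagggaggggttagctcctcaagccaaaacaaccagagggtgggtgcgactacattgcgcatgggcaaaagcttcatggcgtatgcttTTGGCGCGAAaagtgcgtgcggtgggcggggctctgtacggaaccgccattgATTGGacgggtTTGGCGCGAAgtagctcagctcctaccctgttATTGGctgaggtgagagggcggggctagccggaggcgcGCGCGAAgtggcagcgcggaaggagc

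A CCAAT match was held by 11 of 12 mitosis windows (91.67%), 9 of 11 replication windows (81.82%) and 7 of 15 G1 windows (46.67%), against 37.41% of all 32851 promoter windows of the table. The CHR letters stood in 9 of 12 mitosis windows (75.0%), 1 of 11 replication windows (9.091%) and 1 of 15 G1 windows (6.667%), against 17.89% of all windows. E2F-like letters were in 3 of 12 mitosis windows (25.0%), 6 of 11 replication windows (54.55%) and 3 of 15 G1 windows (20.0%), against 8.073% of all windows. The mitosis windows thus held the CHR letters most often and the replication windows the E2F-like letters most often. In the Cdk1 window the CHR matches began at -71 and -15 and in the Mki67 window at -116 and -98, counted from the first transcribed base at +1. Those of Plk1, Bub1b and Cenpa began downstream of the start, at +31, +41 and +17. The Mcm6 window held 5 E2F-like matches, some of which overlapped each other, and the Mcm7 window held 3. A match is a description of letters, not of a bound site.

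**Figure D1:**
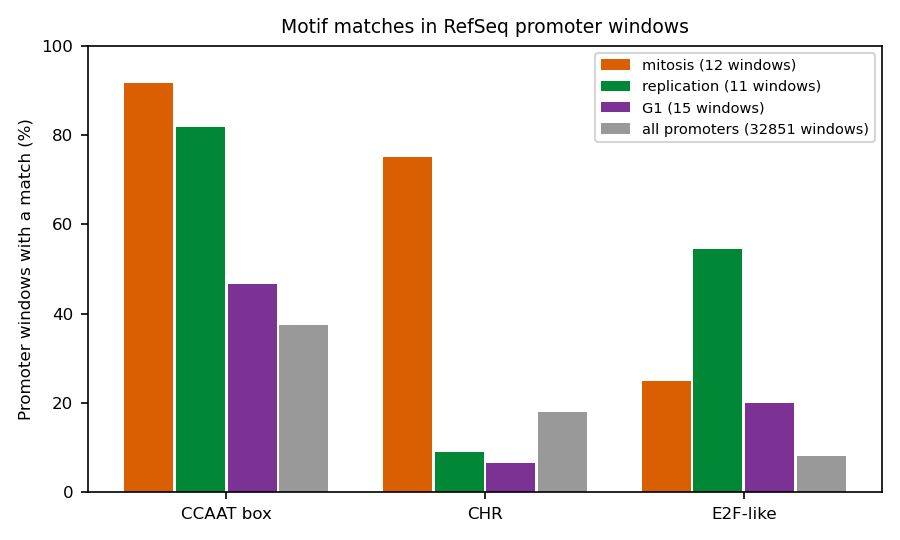
Share of RefSeq promoter windows (%, vertical axis) with at least 1 match to each motif, for mitosis, replication and G1 genes and for all promoters of the table. The CHR bar is highest for mitosis (75.0%) and the E2F-like bar for replication (54.55%), against 17.89% and 8.073% of all promoters.

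In all 4 libraries the RNA of the inhibitor Cdkn1a (p21), which is induced by p53 and binds cyclin-kinase complexes, was the most abundant of the listed members, and most mitosis genes lay near the bottom of the order. Cdkn1a stood at 341 FPKM in KO and 407 FPKM in WT ILC3s, and at 113 FPKM in CD93-positive and 119 FPKM in CD93-negative ILC3s. In KO and WT cells it was followed by Cdkn1b (p27), the replication clamp Pcna and the D cyclin Ccnd2. In CD93-positive and CD93-negative cells it was followed by Cenpa, the centromeric histone H3 variant, and by Cdkn1b. The median member of the mitosis group was at the 25.0th percentile of all listed genes in KO and the 35.0th in WT, and at the 17.5th in CD93-positive and the 23.3rd in CD93-negative cells. The median G1 gene was at the 51.2nd percentile in KO and the 60.2nd in WT, and at the 51.0th in CD93-positive and the 50.5th in CD93-negative cells. The median replication gene lay between these, at the 47.8th percentile in KO and the 55.5th in WT, and at the 37.5th in CD93-positive and the 40.8th in CD93-negative cells. The 2 tables were normalized apart, so levels are compared within a table only.

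**Figure D2:**
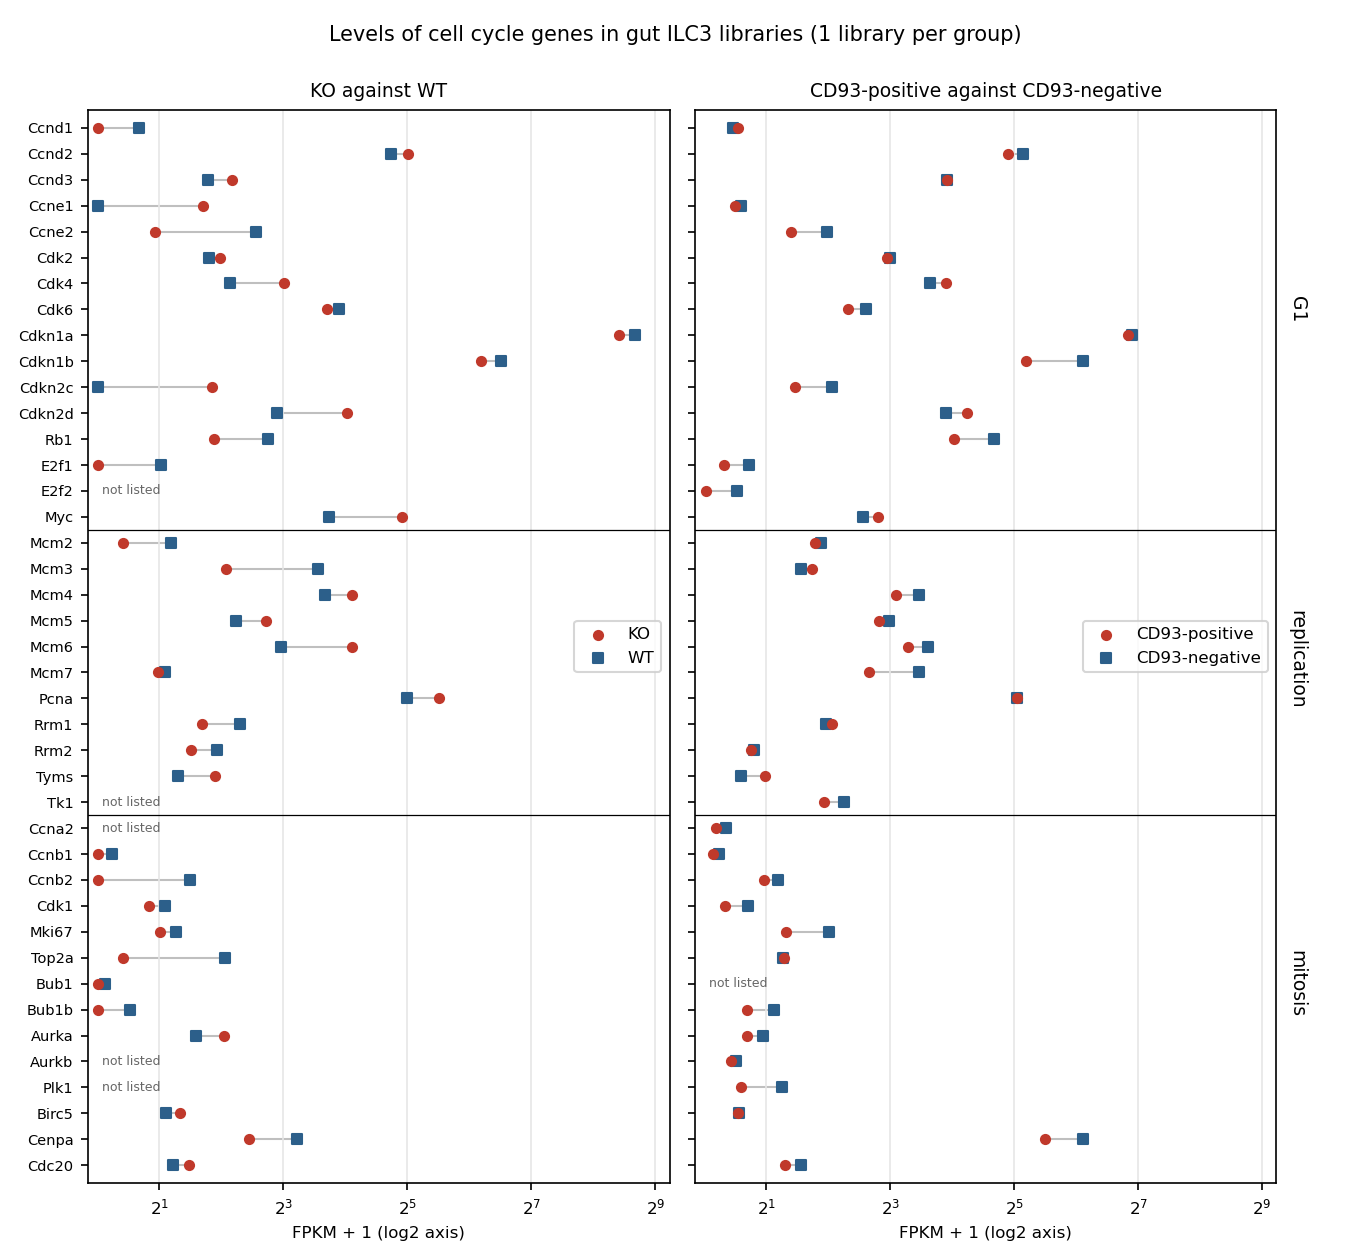
Level of every listed member as FPKM + 1 (log2 axis) in KO and WT ILC3s (left) and in CD93-positive and CD93-negative ILC3s (right), 1 point per library, with no error bar because there was 1 library per group. Cdkn1a is the most abundant member in each panel, and Cenpa is the most abundant mitosis gene in each.

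Between the KO and WT libraries the members differed about as often as other genes did. Of the 36 listed, 32 were measured and 4 (Ccnd1, Ccnb1, Bub1 and Bub1b) were under 1 FPKM in both libraries. At least 2-fold apart were 10 of the 32, against 29.3% of all 12376 measured genes. Higher in KO were 5 of them (Mcm6, Cdkn2c, Ccne1, Cdkn2d and Myc; 16.6% of all genes) and lower 5 (Mcm3, E2f1, Ccne2, Ccnb2 and Top2a; 12.7% of all genes). A count of 10 of 32 is near the share of all genes. In sign the measured members were even, with 16 above 0, as were 50.5% of all genes, and 16 below 0, as were 49.5%. The median difference was 0.03 on the log2 scale over the members and 0.01 over all measured genes.

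Most genes of this pair differed by more than counting error. With recovered reads, 15 of 31 measured members had a ratio interval above 1, against 46.0% of genes, and 14 had one below 1, against 41.3% of genes; an interval without 1 was held by 87.3% of genes. The share of genes at least 2-fold apart went down with depth: 74.1% of genes with 10 to under 100 recovered reads over the pair, 40.8% with 100 to under 1000, 13.5% with 1000 to under 10000 and 4.39% with at least 10000. In the same order of depth the members past 2-fold were 2 of 2, 5 of 17, 3 of 10 and 0 of 2. Of the genes with 50 or more reads over both libraries, 452 of 9254 were at 0 reads in KO and 458 in WT. Of the members with that depth, E2f1, Ccnd1 and Ccnb2 had 0 reads in KO, and Cdkn2c and Ccne1 had 0 reads in WT. In the CD93 pair, 5 of 10302 genes with that depth had 0 reads in CD93-positive and 0 in CD93-negative cells, and no member did.

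**Figure D3:**
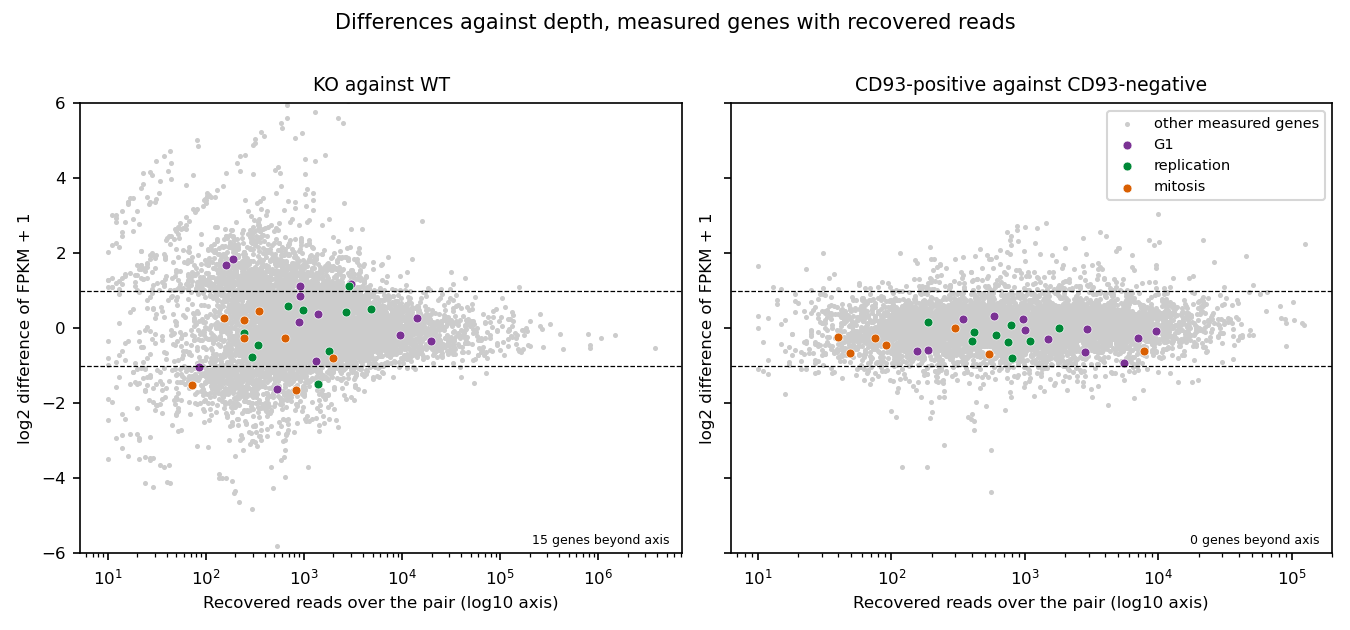
Difference of log2(FPKM + 1), first-named library minus second (vertical axis), against recovered reads over the pair (log10 axis) for measured genes, with members in colour and dashed lines at 2-fold; 15 genes of the KO and WT panel lie beyond the axis. Differences are wide at all but the highest depths between KO and WT (29.3% of genes past 2-fold) and narrow between CD93-positive and CD93-negative (4.43%).

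Markers of other cells moved with this pair and stand beside all of its values. Listed markers of pancreatic acinar cells summed to 1404 FPKM in KO and 0.274 FPKM in WT, all 9 of 9 were higher in KO, and 7 of 9 were at 0 in WT. Epithelial markers summed to 1068 FPKM in KO and 296 FPKM in WT, with 6 higher in KO and 5 lower. Ascl2 and Cdh1 were at 0 in KO and Olfm4 at 0 in WT. Defa24 made up most of the sum, at 887 FPKM in KO and 243 FPKM in WT, and without it the sums were 181 FPKM in KO and 53.1 FPKM in WT. B and plasma cell markers summed to 4668 FPKM in KO and 2836 FPKM in WT, with Mzb1 among those at 0 in WT. T cell markers summed to 1281 FPKM in KO and 888 FPKM in WT, and 9 of 10 were higher in KO. Myeloid markers summed to 64.4 FPKM in KO and 17.5 FPKM in WT, with 4 higher in KO and 2 lower (Cd209a at 1 read in KO and 159 reads in WT, Xcr1 at 1 read in KO and 200 reads in WT). Stromal and endothelial markers summed to 17.6 FPKM in KO and 15.1 FPKM in WT, with 3 of 6 higher, and to 0.221 FPKM in KO and 3.15 FPKM in WT without Pecam1. ILC3 markers were all listed (14 of 14) and summed to 13520 FPKM in KO and 17757 FPKM in WT, of which the cytokine gene Il22 was 11771 FPKM in KO and 16102 FPKM in WT. Without Il22 the sums were 1749 FPKM in KO and 1654 FPKM in WT, and 6 of the 14 were higher in KO and 8 lower. The part of other cells in the values of cell cycle genes was not tested.

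**Figure D4:**
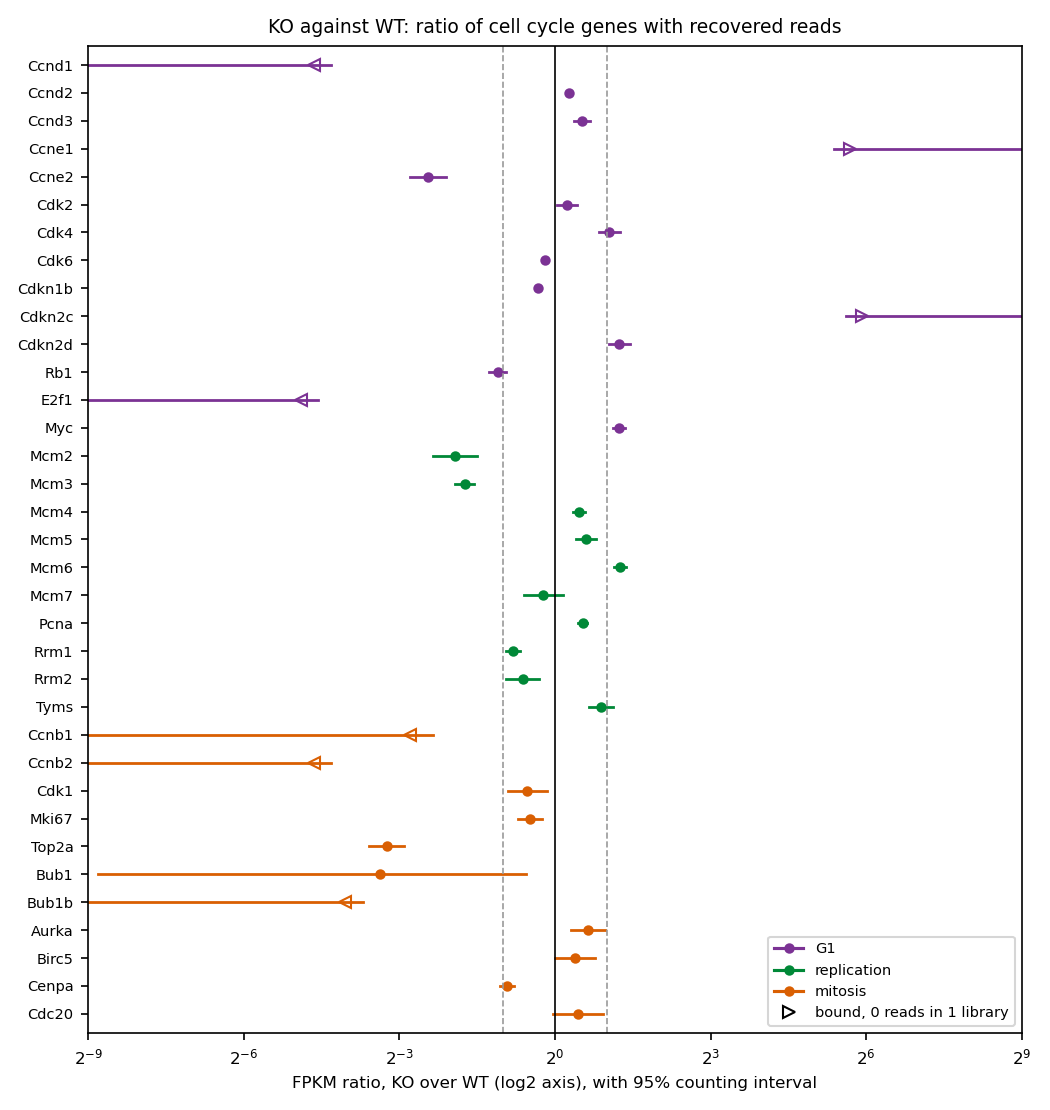
FPKM ratio of KO over WT (log2 axis) of members with recovered reads, with 95% counting intervals; open triangles are bounds where 1 library had 0 reads, the black line is equal FPKM and dashed lines are 2-fold. G1, replication and mitosis genes each lie on both sides of equality, and Top2a (0.106) has the lowest ratio of mitosis genes with more than 1 read in each library.

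Among G1 genes, the abundant D cyclin was close in level and the late-G1 cyclins were not. Ccnd2, the main D cyclin here, stood at 31.1 FPKM in KO and 25.7 FPKM in WT, a ratio of 1.21 (95% interval 1.17 to 1.25). Its relative Ccnd3 stood at 3.48 FPKM in KO and 2.43 FPKM in WT (1.43, 1.29 to 1.60). Ccnd1, the third D cyclin, was under 1 FPKM in both, at 0 FPKM in KO and 0.594 FPKM in WT. Ccnd2 thus made up 89.9% of the summed D cyclin level in KO and 89.5% in WT. The E cyclins, which drive Cdk2 at the entry to S phase, lay in opposite directions. Ccne1 had 161 reads (2.24 FPKM) in KO and 0 reads in WT. Against a floor of 3 reads in the WT library it was 51.8-fold higher in KO, and its 95% interval began at 41.7-fold. Ccne2 stood at 0.901 FPKM in KO and 4.88 FPKM in WT, a ratio of 0.185 (0.145 to 0.233). The genes lie at chr7:38097984-38107534 (Ccne1) and chr4:11191351-11204779 (Ccne2), and 17.4% of the exon bases of Ccne2 overlap Ints8. Since no source used here states whether strand was kept, reads of overlapping genes could not be told apart. The overlapped share was 23.4% for Ccnd1, 12.5% for Ccna2, 7.86% for Ccnd2, 7.68% for Cdkn1a and 7.09% for Plk1, and at most 4.11% for members not named with a share.

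The kinases of G1 were nearer to equal. Cdk2 stood at 2.92 FPKM in KO and 2.50 FPKM in WT (ratio 1.17, 1.02 to 1.34). Cdk6 stood at 12.1 FPKM in KO and 13.9 FPKM in WT (0.870, 0.836 to 0.906). Cdk4 was the one of the 3 with the wider gap, 7.08 FPKM in KO and 3.42 FPKM in WT (2.07, 1.80 to 2.39), under 2-fold on the log2(FPKM + 1) scale at 0.87, and 19.7% of its exon bases overlap Tspan31.

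The inhibitors among the members lay in both directions. The Cip/Kip genes were both lower in KO: Cdkn1a had a ratio of 0.840, with no recovered reads and so no interval, and Cdkn1b stood at 72.0 FPKM in KO and 90.5 FPKM in WT (0.796, 0.774 to 0.819). The INK4 members, whose proteins bind Cdk4 and Cdk6, were both higher in KO. Cdkn2b, an INK4 gene outside the members, lay the other way, at 0 FPKM in KO and above 0 in WT. Cdkn2d (p19) stood at 15.2 FPKM in KO and 6.43 FPKM in WT (2.36, 2.05 to 2.74). Cdkn2c (p18) had 189 reads (2.61 FPKM) in KO and 0 reads in WT. Against the 3-read floor in the WT library Cdkn2c was 60.9-fold higher in KO, and its counting interval began at 49.0-fold. Because Cdkn1a supplied 79.2% of the summed inhibitor level in KO and 80.7% in WT, the sum followed it, at 431 FPKM in KO and 504 FPKM in WT.

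The pocket protein Rb1 and its partner E2f1 were both lower in KO. Rb1 stood at 2.67 FPKM in KO and 5.74 FPKM in WT (0.465, 0.414 to 0.522), with 14.9% of its exon bases shared with Lpar6 and Rcbtb2. E2f1 had 0 reads in KO and 86 reads (1.05 FPKM) in WT. Against the same floor in the KO library E2f1 was 29.7-fold lower in KO, and its counting interval began at 23.6-fold. Myc, a growth factor-induced transcription factor at chr15:61985391-61990374, had 2138 reads (29.1 FPKM) in KO and 874 reads (12.3 FPKM) in WT, a ratio of 2.36 (2.18 to 2.56). Over the 14 measured G1 genes, 4 were higher by 2-fold or more and 2 lower, against 16.6% and 12.7% of all genes. Their median log2 difference was 0.22. Setting the genes at 0 reads at their bounds could not move it, since each stays on its own side of the median.

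Within the MCM complex, whose 6 subunits form a ring that unwinds DNA, the levels did not keep a common ratio between the libraries. Mcm6, at chr1:128331590-128359664, stood at 16.2 FPKM in KO and 6.81 FPKM in WT (2.38, 2.20 to 2.59). Mcm3, at chr1:20802968-20820312, stood at 3.22 FPKM in KO and 10.7 FPKM in WT (0.300, 0.264 to 0.340). These subunits of the same ring were thus past 2-fold in opposite directions. Mcm2 was also lower, 0.335 FPKM in KO and 1.27 FPKM in WT (0.265, 0.197 to 0.351). Mcm4 stood at 16.3 FPKM in KO and 11.8 FPKM in WT (1.38, 1.28 to 1.50), and Mcm5 at 5.59 FPKM in KO and 3.71 FPKM in WT (1.51, 1.33 to 1.72). For Mcm7 the interval held 1, with 0.962 FPKM in KO and 1.13 FPKM in WT (0.855, 0.659 to 1.11). The most abundant subunit was 48.5 times the least abundant in KO and 10.4 times in WT, while the sum of the 6 was 42.6 FPKM in KO and 35.4 FPKM in WT.

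Pcna, the sliding clamp of the polymerases, was the most abundant replication gene, at 44.7 FPKM in KO and 30.8 FPKM in WT (1.45, 1.37 to 1.54). The subunits of ribonucleotide reductase, which makes deoxynucleotides, were both lower in KO. Rrm1 stood at 2.23 FPKM in KO and 3.90 FPKM in WT (0.572, 0.519 to 0.631), and Rrm2 at 1.83 FPKM in KO and 2.82 FPKM in WT (0.649, 0.519 to 0.810). Tyms, which makes thymidylate, was higher, 2.71 FPKM in KO and 1.47 FPKM in WT (1.84, 1.57 to 2.17). The 10 measured replication genes were split evenly, 5 above and 5 below 0, with a median difference of 0.16.

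The mitosis genes were low in both libraries, and 8 of 11 listed were lower in KO, against 50.3% of all listed genes. Among these, Ccnb1, Bub1 and Bub1b were under 1 FPKM in both libraries. Of the 8 measured, 5 were lower in KO, against 49.5% of all measured genes. Top2a, the topoisomerase that untangles sister chromosomes, had 82 reads (0.337 FPKM) in KO and 745 reads (3.17 FPKM) in WT, a ratio of 0.106 (0.0836 to 0.134). Ccnb2, a B cyclin, had 0 reads in KO and 73 reads (1.83 FPKM) in WT. Against the read floor in the KO library Ccnb2 was 25.2-fold lower in KO, and its counting interval began at 20.0-fold. Ccnb1, the other B cyclin, had 0 reads in KO and 20 reads (0.182 FPKM) in WT. Their kinase Cdk1 was nearer, 0.773 FPKM in KO and 1.12 FPKM in WT (0.691, 0.531 to 0.896). Mki67, the proliferation marker that coats mitotic chromosomes, stood at 1.02 FPKM in KO and 1.42 FPKM in WT (0.717, 0.611 to 0.840). Cenpa, the most abundant of the group, stood at 4.42 FPKM in KO and 8.35 FPKM in WT (0.529, 0.482 to 0.580). The spindle checkpoint kinase genes were scarce. Bub1b was at 0 reads in KO and 48 reads in WT. Bub1 had 1 read in KO and 10 in WT, with an interval from 0.00223 to 0.679.

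Other mitosis genes lay the opposite way. The spindle kinase Aurka stood at 3.13 FPKM in KO and 2.01 FPKM in WT (1.55, 1.25 to 1.94). Birc5 (survivin), a subunit of the chromosomal passenger complex, stood at 1.51 FPKM in KO and 1.16 FPKM in WT (1.30, 1.00 to 1.70). For Cdc20, the activator of the anaphase-promoting complex, the interval held 1, with 1.78 FPKM in KO and 1.31 FPKM in WT (1.36, 0.975 to 1.90). The measured mitosis genes had a median difference of -0.26 and their FPKM summed to 13.0 in KO and 21.1 in WT over all listed genes. With Cenpa left out the sums were 8.56 in KO and 12.7 in WT. Of the 8 measured mitosis genes, 5 had an interval below 1, against the 41.3% of all genes.

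Other genes of the same pathways, in lists chosen with earlier results of these data known, also gave mixed directions between KO and WT, and their counts stand beside 16.6% of all genes at least 2-fold higher and 12.7% lower. Of 15 measured genes of G1/S control, 3 were higher by 2-fold or more and 3 lower, among them the ubiquitin ligase subunit Fbxw7 at 12.0 FPKM in KO and 4.48 FPKM in WT. Of 13 measured genes of origin licensing and firing, 1 was higher and 2 lower, and the median was -0.29; the higher one was Gmnn (geminin), the inhibitor of licensing, at 9.76 FPKM in KO and 3.92 FPKM in WT. Of 25 measured fork genes, 3 were higher and 2 lower. Of these, the polymerase epsilon subunit Pole3 stood at 2.32 FPKM in KO and 17.4 FPKM in WT, and the polymerase delta subunit Pold2 at 15.3 FPKM in KO and 5.16 FPKM in WT. Of 20 other measured mitosis genes, 3 were higher and 2 lower, with a median of 0.11 that differs in sign from that of the members. The condensin subunits Smc2 (4.01 FPKM in KO, 8.51 FPKM in WT) and Smc4 (25.5 FPKM in KO, 15.6 FPKM in WT) lay in opposite directions. Of 17 measured antiproliferative and p53 pathway genes, 1 was higher and 4 lower, with a median of -0.37; the DNA damage-inducible Gadd45a stood at 2.77 FPKM in KO and 19.2 FPKM in WT. Of 18 measured Myc partners and targets, 3 were higher and 3 lower. The partner Max stood at 6.45 FPKM in KO and 0.607 FPKM in WT, while the target Srm, spermidine synthase, had 1 read in KO and 298 reads in WT.

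Between CD93-positive and CD93-negative ILC3s the differences of log2(FPKM + 1) were small but mostly in one direction. Of the 40 listed members 28 were measured and 12 were under 1 FPKM in both libraries. On that scale none of the 28 was at least 2-fold apart, against 4.43% of all 10117 measured genes (2.49% higher and 1.94% lower). By the FPKM ratio, without the added 1, Plk1 (0.364) and Mki67 (0.498) were past 2-fold. In sign, 22 of 28 were below 0, against 45.6% of all genes, and 6 were above 0, against 54.4%. The 22 include Pcna, whose ratio was 1.00. The median difference was -0.25 over the members and 0.04 over all measured genes. A counting interval below 1 was held by 15 of 28 members, against 25.8% of genes, and one above 1 by 2 (Cdk4 and Cdkn2d), against 34.2%. An interval without 1 was thus held by 17 of 28, near the 60.0% of all genes, while the directions were uneven.

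Over all listed members, 32 of 40 were below 0 and 8 above, against 48.8% of all 12546 listed genes below 0. All 10 measured members with at least 1000 recovered reads over the pair were at or below 0 (Ccnd2, Ccnd3, Cdk2, Cdk6, Cdkn1a, Cdkn1b, Rb1, Mcm6, Pcna and Cenpa), against 44.1% of genes of that depth below 0; the intervals of Ccnd3, Cdk2 and Pcna held 1. The share of genes at least 2-fold apart varied little with depth in this pair: 8.61% with 10 to under 100 reads, 4.55% with 100 to under 1000, 3.74% with 1000 to under 10000 and 4.82% with at least 10000. Scaling both libraries to a common FPKM sum moved the median of all genes to -0.12, against 0.04 as deposited, and the share of genes past 2-fold that were higher to 36.9%, against 56.2% as deposited. Under it 24 of 28 members were below 0, beside 64.3% of all genes, and the members' median was -0.39.

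Several lists of markers of other cells moved the same way as the members in this pair. Listed T cell markers (5 of 10) summed to 2.74 FPKM in CD93-positive and 9.94 FPKM in CD93-negative cells, with 4 lower in CD93-positive cells and 1 (Cd5) higher. The only listed B cell marker, Cd79b, stood at 2.27 FPKM in CD93-positive and 4.98 FPKM in CD93-negative cells. Epithelial markers (7 of 16) summed to 24.0 FPKM in CD93-positive and 43.2 FPKM in CD93-negative cells, and acinar markers (8 of 9) to 175 FPKM in CD93-positive and 269 FPKM in CD93-negative cells; all 7 and all 8 were lower in CD93-positive cells. Myeloid markers summed to 52.3 FPKM in CD93-positive and 43.1 FPKM in CD93-negative cells, and stromal and endothelial markers to 86.8 FPKM in CD93-positive and 65.8 FPKM in CD93-negative cells. Of these, 8 of 9 myeloid markers were higher in CD93-positive cells, while 7 of 9 stromal and endothelial markers were lower and Pecam1 made up most of that sum, at 74.4 FPKM in CD93-positive and 59.4 FPKM in CD93-negative cells. ILC3 markers summed to 9389 FPKM in CD93-positive and 2654 FPKM in CD93-negative cells, of which Il22 was 7934 FPKM in CD93-positive and 1655 FPKM in CD93-negative cells. Without Il22 the sums were 1456 FPKM in CD93-positive and 998 FPKM in CD93-negative cells. Of the 14 ILC3 markers, 10 were higher in CD93-positive cells and 4 lower. The part of other cells in the values of cell cycle genes was not tested.

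**Figure D5:**
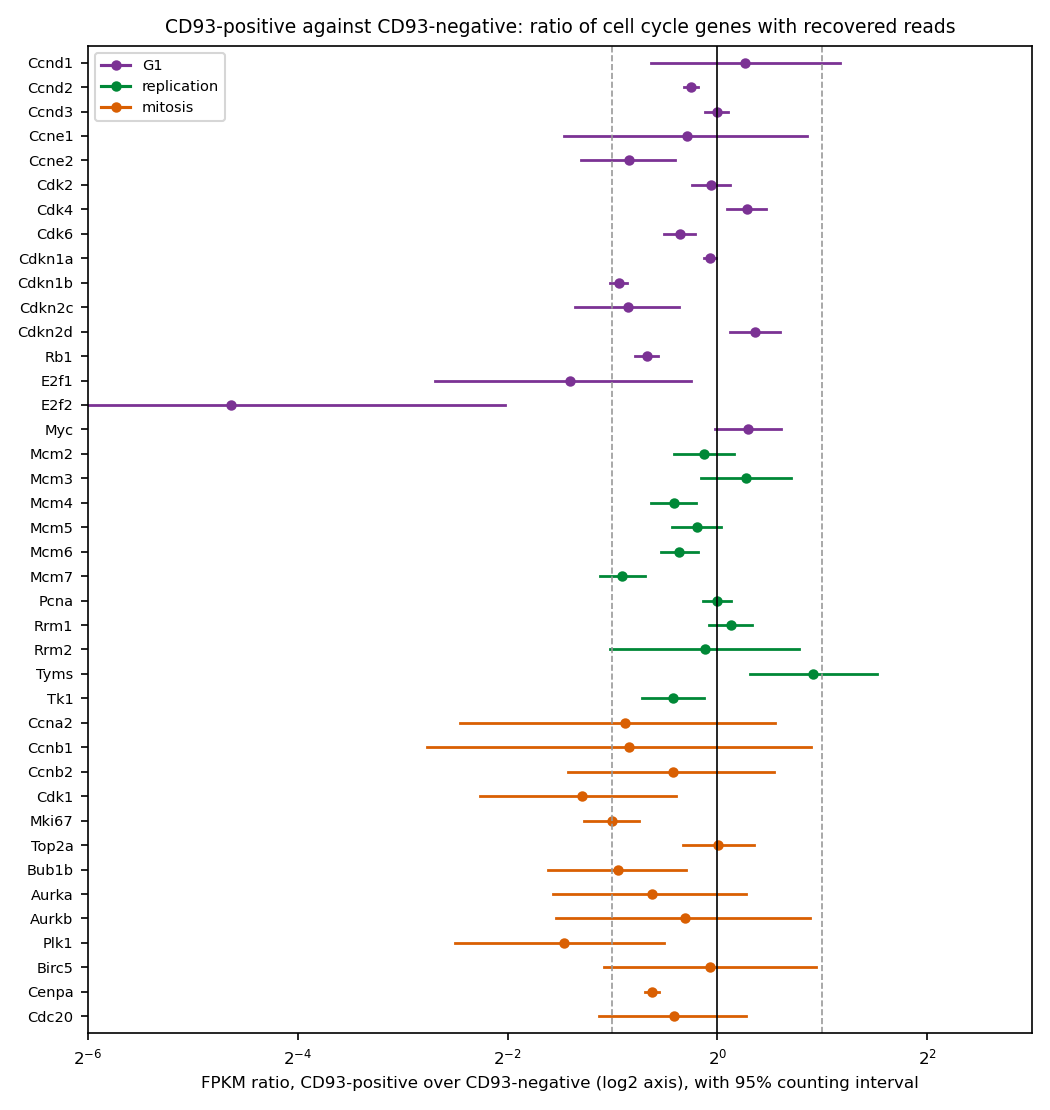
FPKM ratio of CD93-positive over CD93-negative ILC3s (log2 axis) of all listed members, with 95% counting intervals; the black line is equal FPKM, dashed lines are 2-fold, and the lower end of the E2f2 interval lies beyond the axis. Of the 13 mitosis genes 12 lie left of equality, beside 48.8% of all listed genes. Most of their intervals are wide because they rest on few reads.

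In sign the mitosis genes leaned most to one side: 12 of 13 listed were lower in CD93-positive cells, against 48.8% of all listed genes. Of the 13, 6 were under 1 FPKM in both libraries. Of the 7 measured, 6 were below 0, against 45.6% of all measured genes, beside 7 of 9 replication and 9 of 12 G1 genes. Those replication genes include Pcna, which was equal at 32.2 FPKM in each library. An interval below 1 was held by 4 of the 7 mitosis genes, against 25.8% of all genes. Mki67, at chr7:135689784-135716361, had 177 reads (1.50 FPKM) in CD93-positive and 358 reads (3.02 FPKM) in CD93-negative cells, a ratio of 0.498 (0.413 to 0.598). Cenpa, at chr5:30666777-30674830, had 3043 reads (44.3 FPKM) in CD93-positive and 4717 reads (68.3 FPKM) in CD93-negative cells (0.649, 0.620 to 0.680). Plk1, the polo kinase that drives entry to mitosis, had 13 reads (0.505 FPKM) in CD93-positive and 36 reads (1.39 FPKM) in CD93-negative cells (0.364, 0.177 to 0.702). These 3 genes and Bub1b and Cdk1 are those whose promoter windows are printed above, and the interval of each lay below 1. Bub1b, the checkpoint kinase, had 31 reads (0.619 FPKM) in CD93-positive and 60 reads (1.19 FPKM) in CD93-negative cells (0.520, 0.326 to 0.815). Cdk1 had 15 reads (0.260 FPKM) in CD93-positive and 37 reads (0.636 FPKM) in CD93-negative cells (0.408, 0.208 to 0.762), under the level needed to be measured.

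Top2a was the exception, with 151 reads in each library (1.43 FPKM in CD93-positive and 1.42 FPKM in CD93-negative cells; 1.01, 0.798 to 1.27), and its sign turned when the libraries were scaled to a common sum or to a median ratio of 1. The cyclins of S phase and mitosis were close to the limit of detection. Ccna2 had 7 reads in CD93-positive and 13 in CD93-negative cells, Ccnb1 had 5 in CD93-positive and 9 in CD93-negative cells, and Ccnb2 had 17 in CD93-positive and 23 in CD93-negative cells. The intervals of all 3 held 1, so no difference was detectable at this depth. The same held for Cdc20 (1.46 FPKM in CD93-positive and 1.95 FPKM in CD93-negative cells; 0.749, 0.459 to 1.21) and Aurka (0.607 FPKM in CD93-positive and 0.938 FPKM in CD93-negative cells; 0.647, 0.337 to 1.21). The passenger complex genes Aurkb (0.805, 0.344 to 1.84), its kinase, and Birc5 (0.954, 0.472 to 1.92) were also within counting error. Over the 7 measured mitosis genes the median difference was -0.44. The listed ones summed to 52.7 FPKM in CD93-positive and 81.4 FPKM in CD93-negative cells, of which Cenpa was 84.1% and 83.8% in the same libraries. Without Cenpa the sums were 8.38 FPKM in CD93-positive and 13.2 FPKM in CD93-negative cells, a ratio of 0.636.

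Among the replication genes, 4 of 9 measured had an interval below 1 and none above, against 25.8% of all genes below and 34.2% above. Mcm7, at chr5:138164583-138172422, had 276 reads (5.32 FPKM) in CD93-positive and 521 reads (9.98 FPKM) in CD93-negative cells (0.533, 0.459 to 0.618); 12.6% of its exon bases overlap other genes, Mir25 and Mir93 among them. Mcm4 stood at 7.54 FPKM in CD93-positive and 10.1 FPKM in CD93-negative cells (0.749, 0.646 to 0.868). Mcm6 stood at 8.71 FPKM in CD93-positive and 11.2 FPKM in CD93-negative cells (0.778, 0.689 to 0.878). For the other subunits the interval held 1: the ratio was 0.915 (0.751 to 1.11) for Mcm2, 1.21 (0.897 to 1.62) for Mcm3 and 0.873 (0.742 to 1.03) for Mcm5. The most abundant subunit stood at 3.72 times the least abundant in CD93-positive and 5.76 times in CD93-negative cells.

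Pcna was equal, with 904 reads in CD93-positive and 910 in CD93-negative cells (32.2 FPKM in each; 1.00, 0.911 to 1.10). Tk1, the thymidine kinase of the salvage pathway, stood at 2.83 FPKM in CD93-positive and 3.79 FPKM in CD93-negative cells (0.746, 0.609 to 0.913). Tyms, which makes the same nucleotide from deoxyuridylate, lay the other way but was under 1 FPKM, at 0.967 FPKM in CD93-positive and 0.515 FPKM in CD93-negative cells (1.88, 1.24 to 2.88). The reductase genes did not differ beyond counting error, with ratios of 1.09 (0.947 to 1.26) for Rrm1, whose sign turned with scaling to a common sum, and 0.923 (0.493 to 1.72) for Rrm2.

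Among G1 genes, the inhibitors Cdkn1b and Cdkn2c and the retinoblastoma gene were lower in CD93-positive cells, and the inhibitors Cdkn1a and Cdkn2d were close or lay the other way. Cdkn1b, at chr6:134920401-134925513, had 1897 reads (35.6 FPKM) in CD93-positive and 3662 reads (68.2 FPKM) in CD93-negative cells, a ratio of 0.521 (0.493 to 0.551). On the log2(FPKM + 1) scale its difference, -0.92, was the widest of the measured members. By FPKM ratio Plk1 (0.364), Mki67 (0.498) and Bub1b (0.520) were lower still. Rb1 stood at 15.3 FPKM in CD93-positive and 24.4 FPKM in CD93-negative cells (0.627, 0.581 to 0.677). Cdkn2c stood at 1.75 FPKM in CD93-positive and 3.16 FPKM in CD93-negative cells (0.554, 0.391 to 0.777). The most abundant inhibitor, Cdkn1a, was close, with 4707 reads in CD93-positive and 4968 in CD93-negative cells (0.954, 0.916 to 0.993). Cdkn2d lay the other way, at 17.8 FPKM in CD93-positive and 13.9 FPKM in CD93-negative cells (1.28, 1.08 to 1.51). Cdkn1b, Rb1 and Cdkn2c were thus lower in the same library as the mitosis genes with an interval below 1.

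Ccnd2, the main D cyclin, was nearer to equal. It stood at 28.9 FPKM in CD93-positive and 34.3 FPKM in CD93-negative cells (0.840, 0.802 to 0.881), and Ccnd3 was equal within counting error at 14.0 FPKM in CD93-positive and 14.1 FPKM in CD93-negative cells (0.995, 0.924 to 1.07). Ccnd1 had 25 reads in CD93-positive and 21 in CD93-negative cells. Cdk4 stood at 13.9 FPKM in CD93-positive and 11.4 FPKM in CD93-negative cells (1.22, 1.07 to 1.38), Cdk6 at 3.99 FPKM in CD93-positive and 5.11 FPKM in CD93-negative cells (0.780, 0.703 to 0.865), and the interval of Cdk2 held 1 (0.958, 0.844 to 1.09). Thus the kinases that share the D cyclins lay on opposite sides. Ccne2 stood at 1.64 FPKM in CD93-positive and 2.94 FPKM in CD93-negative cells (0.557, 0.407 to 0.757), while Ccne1 was under 1 FPKM in both (0.818, 0.362 to 1.81). The E2F activators were scarce. E2f1 had 9 reads in CD93-positive and 24 in CD93-negative cells (0.377, 0.154 to 0.841), and E2f2 had 1 read in CD93-positive and 25 in CD93-negative cells (0.0403, 0.000981 to 0.246). Myc stood at 5.97 FPKM in CD93-positive and 4.87 FPKM in CD93-negative cells, with an interval that held 1 (1.23, 0.987 to 1.53).

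Other lists of the pathways, whose difference from the members was not tested, had medians on both sides of 0 in the CD93 pair. The 16 measured genes of G1/S control had a median difference of 0.01, which was -0.13 with a common FPKM sum, and the 27 fork genes one of 0.08, which was -0.07 with a common sum. Uhrf1, which carries DNA methylation through replication, stood at 5.73 FPKM in CD93-positive and 2.77 FPKM in CD93-negative cells (2.07, 1.69 to 2.56), while Dut, the dUTPase, stood at 7.65 FPKM in CD93-positive and 13.7 FPKM in CD93-negative cells (0.559, 0.471 to 0.662). The 15 origin genes had a median of -0.09, with 11 of 15 below 0 against 45.6% of all genes. The 18 other mitosis genes had a median of -0.18. Their interval lay below 1 in 8 of 18, against 25.8% of all genes, and above 1 in 2, against 34.2%. In that list Smc4 stood at 20.2 FPKM in CD93-positive and 35.1 FPKM in CD93-negative cells (0.577, 0.537 to 0.619), and the chromatin protein gene Hmgb2 at 22.8 FPKM in CD93-positive and 36.3 FPKM in CD93-negative cells (0.628, 0.575 to 0.687). One gene of the list was at least 2-fold lower, beside 1.94% of all genes.

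The antiproliferative and p53 pathway genes had the lowest list median of these, -0.35. At least 2-fold lower were 3 of 19, against 1.94% of all genes, and none was higher, against 2.49%. An interval lay below 1 in 10 of the 19 and above 1 in 5, against 25.8% and 34.2% of all genes. The most abundant of the list, Btg1, was higher, at 338 FPKM in CD93-positive and 276 FPKM in CD93-negative cells. The p53 target Trp53inp1 stood at 63.4 FPKM in CD93-positive and 172.9 FPKM in CD93-negative cells (0.367, 0.355 to 0.379), and the antiproliferative Btg2 at 65.9 FPKM in CD93-positive and 134.8 FPKM in CD93-negative cells (0.489, 0.464 to 0.515). Gadd45a stood at 38.7 FPKM in CD93-positive and 75.6 FPKM in CD93-negative cells (0.512, 0.470 to 0.558). Myc partners and targets lay the other way, with a median of 0.44 (0.27 with a common FPKM sum) and an interval above 1 in 15 of 19, against 34.2% of all genes. Odc1, the ornithine decarboxylase that starts polyamine synthesis, stood at 1583 FPKM in CD93-positive and 964 FPKM in CD93-negative cells (1.64, 1.62 to 1.66). Srm, next in the same pathway, stood at 9.56 FPKM in CD93-positive and 3.82 FPKM in CD93-negative cells (2.50, 1.89 to 3.34), and Cad, of pyrimidine synthesis, at 20.4 FPKM in CD93-positive and 11.7 FPKM in CD93-negative cells (1.74, 1.62 to 1.88). Within the CD93-positive library, then, RNA of most Myc partners and targets was higher than in the CD93-negative library. RNA of Mki67, Cenpa, Plk1, Bub1b and Cdk1, of Trp53inp1, Btg2 and Gadd45a and of Cdkn1b was lower. The intervals of the other listed mitosis members held 1.

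The KO and WT pair and the CD93 pair share no library. Of 25 members measured in both, 13 (52.0%) had the same sign in both pairs, as had 48.4% of 7595 genes measured in both. An interval without 1 in both pairs was held by 12 of these 25 members. The share of all genes with one in both pairs, and with the same direction, was not counted. Taken apart, 87.3% of genes held one in the KO and WT pair and 60.0% in the CD93 pair. Cdk4 and Cdkn2d were higher in KO and in CD93-positive cells, and Ccne2, Cdk6, Cenpa, Cdkn1b, Mki67 and Rb1 were lower in both, while Mcm6, Mcm4, Ccnd2 and Cdkn2c were higher in KO and lower in CD93-positive cells.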

How the data were processed

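RNA-seq of 4 libraries of mouse small-intestine ILC3s, 1 per group, was used. The FPKM values were computed and deposited by the authors. The submitters' processing notes name Bowtie2, featureCounts (Subread), edgeR and DESeq2 as tools and mm10 as the genome build; no source used here gives their order, settings, versions or the annotation. The members and all gene lists were chosen with earlier results of these data known. All 41 members are named, and of each other pathway list up to 4 genes with the largest absolute log2 difference were eligible, among those with at least 5 FPKM in a library.

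FPKM times union exon length (GENCODE M21) came out as whole reads of 1 size in each library, to within 0.02 reads, for 92.1% (KO), 91.9% (WT), 98.1% (CD93-positive) and 98.2% (CD93-negative) of the values above 0 with a length, giving scaling totals of 27002581, 26087274, 11712846 and 11790580 in the same order. No gene with recovered reads had fewer than 10 over its pair. The recovery was tested on simulated data. A count test was not run, since 1 library per group leaves no replicate spread. Differences used a pseudocount of 1, a minimum of 1 FPKM in either library and a limit of 2-fold; fold bounds against 0 reads used a floor of 3 reads in that library. Groups were taken from the labels, and comparisons stayed within a joint table, because the tables list different gene sets. Alternatives were other pseudocounts, filters, fold limits and scalings and the counting interval; a minimum of 1000 reads, leaving out members with exon overlap, and all alternatives for the count of lower members were chosen after seeing the data. The computation used Python 3.11.15, pandas 2.3.3, numpy 2.4.6, scipy 1.17.1 and matplotlib 3.10.9. Some items of the gate and of the marker lists are not reported here.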

Additional observations from a re-analysis of the deposited data

How the results depend on the processing

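No paired analysis was possible because there was 1 library per group. Between KO and WT, 10 members were at least 2-fold apart as reported. That count was 0 with a pseudocount of 5 (6.63% of all genes), 4 of 14 with at least 5 FPKM (21.5%), 4 at 3-fold (12.6%) and 3 of 12 with at least 1000 reads (12.2%), and 8 to 13 under the other alternatives. The 16 members lower in KO were 6 of 14 with at least 5 FPKM (51.8% of all genes) and 6 of 12 with at least 1000 reads (48.7%). Without members with exon overlap they were 10 of 21, beside 49.5% of all measured genes. Fewer members were counted under these settings. Scaling to a common FPKM sum moved the median of all genes to 0.17 and that of the members to 0.29. In the CD93 pair the count of 0 members past 2-fold was 1 with a pseudocount of 0.1 (Plk1) and 1 with a common FPKM sum (Cdkn1b). The 22 members below 0 in the CD93 pair were 13 of 16 with at least 5 FPKM (42.5% of all genes) and 10 of 10 with at least 1000 reads (44.1%). Without members with exon overlap they were 11 of 15, beside 45.6% of all measured genes. Rrm1 and Top2a alone changed sign in the CD93 pair under a scaling, and no member did between KO and WT. Members with few reads, such as the cyclins of mitosis, limit what the depth can show.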
